A study of Mus musculus with 18 samples.

Results

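Genes of cholesterol and fatty acid synthesis were followed in cultured mouse macrophages with and without Klf3, a transcription repressor of the Krüppel-like zinc finger family, before and after lipopolysaccharide (LPS), a component of the outer membrane of Gram-negative bacteria. The genes were taken from a list of 34 by symbol, and 30 of the 34 had a probe set assigned to that gene alone, out of 17097 genes read on the array. These 30 were 16 of 18 enzymes of the sterol pathway, 8 of 9 enzymes of fatty acid synthesis, elongation and desaturation, 4 of 5 regulators of SREBP transcription factors, the side-branch enzyme Ggps1 and the sterol carrier Stard4. Acat2, Pmvk, Scd2 and Srebf1 were not analysed here. Where a gene had several probe sets, the one with the highest mean over all arrays stood for it.

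Sterols are built from acetyl-CoA through mevalonate, farnesyl diphosphate and squalene, then through lanosterol to cholesterol, while fatty acids are built from the same acetyl-CoA through malonyl-CoA. Both pathways are switched on by SREBP proteins, which SCAP carries out of the endoplasmic reticulum when sterols are low and which INSIG proteins hold back when sterols are plentiful. SREBP2, the product of Srebf2, acts mainly on the sterol enzymes, and SREBP1, the product of Srebf1, mainly on the fatty acid enzymes. Macrophages change both pathways when toll-like receptors are engaged.

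The cells were bone marrow-derived macrophages of male FVB/NJ mice aged 10 to 14 weeks, either Klf3 knockout (KO) or wild type (WT), grown for 7 to 10 days with L929-conditioned medium as a source of M-CSF. In every group the growth medium was taken off, the cells were washed and plain DMEM-F12 with serum was given. The KO and WT cells were then lysed at 0 h, or kept 8 h with the vehicle, phosphate-buffered saline, or 8 h with LPS at 100 ng/mL. Each of the 6 groups had 3 arrays, and the labels do not say whether the 3 were separate mice or cultures, so each p-value reflects the spread among the arrays as given, which may be technical. Levels below are log2 of the quantile-normalized intensity of a probe set, and they are compared between groups and not between genes. The nonspecific level of an array is the 95th percentile of its 23 nonspecific control probe sets. A gene was called higher or lower where limma's adjusted p, taken over all 17097 genes, was under 0.05.

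Klf3 was read by a probe set with a mean level of 6.84 ± 0.17 in KO LPS arrays and 9.12 ± 0.32 in WT LPS arrays (SD, n = 3 arrays each). KO minus WT came to -1.18 in 0 h cells, -1.92 with vehicle and -2.28 with LPS (adjusted p = 0.185, 0.0529 and 0.000187), and the labels do not say whether this probe set lies in the deleted part. The Gapdh 5′ minus 3′ signal, a measure of RNA integrity, ran from -0.49 to -0.397 (log2) in KO LPS arrays and from -0.627 to -0.0663 in WT LPS arrays. The SD from the group mean over all genes was 0.218 to 0.234 in KO LPS arrays and 0.277 to 0.336 in WT LPS arrays, the widest of the 6 groups. Levels of 9 macrophage markers were above the nonspecific level in every array. After LPS, Itgam, Fcgr1 and Mrc1 were lower in KO cells, with differences of -0.82, -1.29 and -1.11 (adjusted p = 0.0436, 0.0118 and 0.00109) and the other 6 were not called. These 3 of 9 stand beside 3.15% of all genes lower and 2.82% higher. Adipoq and Lep, which define adipocytes, and Col1a1 and Lum, which define stromal cells, lay under the nonspecific level in every array. Plin4, the remaining adipocyte marker read, lay above it in 1 array each of the KO 0 h, WT LPS, WT vehicle and WT 0 h groups. None of the 3 adipocyte, 6 stromal, 5 neutrophil and 3 erythroid markers read was called between KO LPS and WT LPS cells. Camp, from the neutrophil list, lay above the nonspecific level in every LPS array and no other, at 8.12 ± 0.17 in KO and 7.63 ± 0.55 in WT LPS arrays. Ngp from that list and the erythroid markers Klf1 and Epor lay above it in some arrays. Elane, Mpo, Ltf and Alas2 lay above it in none.

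Promoters of 5 enzymes are shown because they come from the genes with the largest differences between genotypes and from the fatty acid branch that is set against them. Fdft1, whose LPS response differed more between the genotypes than that of Msmo1, had no promoter in the RefSeq table and is not shown. Each is the RefSeq window (GRCm38.p6) of 250 bases before to 50 bases after the annotated start, written 5′ to 3′ on the gene's strand, with CCAAT on either strand (ATTGG on the strand shown) in capitals. CCAAT is the core of the site bound by NF-Y, a known partner of SREBP proteins.
Cyp51, chr5:4104648-4104947, minus strand: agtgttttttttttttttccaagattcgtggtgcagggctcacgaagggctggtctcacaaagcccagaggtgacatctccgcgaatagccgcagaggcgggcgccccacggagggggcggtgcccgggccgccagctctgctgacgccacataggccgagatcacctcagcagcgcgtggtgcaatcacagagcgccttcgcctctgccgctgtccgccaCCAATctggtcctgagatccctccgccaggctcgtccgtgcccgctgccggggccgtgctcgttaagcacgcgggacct
Idi1, chr13:8885356-8885655, plus strand: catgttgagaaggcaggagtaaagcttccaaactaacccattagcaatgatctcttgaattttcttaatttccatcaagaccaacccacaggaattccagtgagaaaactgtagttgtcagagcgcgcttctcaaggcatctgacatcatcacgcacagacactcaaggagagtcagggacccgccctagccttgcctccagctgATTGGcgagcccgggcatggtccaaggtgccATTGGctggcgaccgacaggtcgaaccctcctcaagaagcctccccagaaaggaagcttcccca
Msmo1, chr8:64733529-64733828, minus strand: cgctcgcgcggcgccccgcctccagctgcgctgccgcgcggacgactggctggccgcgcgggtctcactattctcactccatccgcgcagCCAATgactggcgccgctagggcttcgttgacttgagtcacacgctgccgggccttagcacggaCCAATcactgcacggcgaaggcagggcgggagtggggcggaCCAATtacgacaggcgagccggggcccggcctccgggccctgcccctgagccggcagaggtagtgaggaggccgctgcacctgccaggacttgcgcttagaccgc
Fasn, chr11:120824498-120824797, minus strand: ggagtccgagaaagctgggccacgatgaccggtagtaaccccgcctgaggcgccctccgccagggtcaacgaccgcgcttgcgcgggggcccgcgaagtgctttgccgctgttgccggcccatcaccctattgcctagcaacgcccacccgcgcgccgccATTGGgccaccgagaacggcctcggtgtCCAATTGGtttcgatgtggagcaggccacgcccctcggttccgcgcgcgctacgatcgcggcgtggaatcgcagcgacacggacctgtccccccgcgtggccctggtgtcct
Fads2, chr19:10101454-10101753, minus strand: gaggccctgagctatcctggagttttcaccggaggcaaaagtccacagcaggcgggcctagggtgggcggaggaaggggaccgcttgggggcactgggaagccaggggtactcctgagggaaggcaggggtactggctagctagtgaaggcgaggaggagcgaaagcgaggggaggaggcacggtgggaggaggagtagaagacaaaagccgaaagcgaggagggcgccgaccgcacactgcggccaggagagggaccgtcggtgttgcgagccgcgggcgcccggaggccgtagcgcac

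Of the 34 listed genes, 27 had a promoter in the RefSeq table, and 15 of these were sterol enzymes and 6 were fatty acid enzymes. Fdps, Fdft1 and Sqle had none, while Acat2 and Pmvk, not analysed on the array, are among the 15. CCAAT was found on either strand in 14 of the 15 sterol enzymes (93.3%) and in 3 of the 6 fatty acid enzymes (50%), beside 41.1% of all 27025 genes with such windows. Msmo1 held it 3 times, Idi1 2 times, Cyp51 1 time and Fasn 3 times, 2 of them overlapping, and Fads2 held no match in this window. GGGCGG, the GC box of SP1, was found in 14 of the 15 sterol enzymes, beside 38.2% of all genes. CCNCNCCC, a CACCC-type motif of Krüppel-like factors that can overlap the GC box, was found in 73.3% of the sterol enzymes, 66.7% of the fatty acid enzymes and 51.9% of all genes. The sterol regulatory element TCACNCCAC was matched in Hmgcs1 only among the sterol enzymes, as tcaccccac, and in 1.44% of all genes. A match describes the letters of the window and is not a measured binding site.

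The 2 enzyme classes parted after LPS. Averaged over the 16 sterol enzymes, each taken relative to its mean over all 18 arrays, the log2 level was -0.27, 0.31 and 0.15 in KO LPS arrays, against -1.13, -1.47 and -0.89 in WT LPS arrays. After vehicle the sterol average was -0.27, -0.31 and 0.36 in KO arrays, against -0.04, -0.25 and -0.02 in WT arrays. Every WT LPS array thus lay under every other array of the series, while the KO LPS arrays lay within the range of the KO vehicle arrays. KO vehicle array 3 stood above the other 2 of its group in the sterol average. Among the fatty acid enzymes it did so for Me1, Acly, Acaca, Fasn, Elovl6 and Fads1, but not for Fads2 or Scd1. In these bulk samples fewer cells expressing a gene and less RNA per cell cannot be told apart.

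For the 8 fatty acid enzymes the same average was -1.0, -0.52 and -1.06 in KO LPS arrays, against -0.61, -0.39 and -1.0 in WT LPS arrays. After vehicle it was 0.05, -0.18 and -0.08 in KO arrays, against 0.23, 0.11 and 0.09 in WT arrays. Both genotypes were thus lower after LPS than after vehicle without overlap, and the LPS arrays of the genotypes overlapped. No p-value is given for these averages, since they run over chosen genes. Scd1 counts among the 8, though it read under the nonspecific level in all KO LPS arrays, WT LPS array 3 and KO vehicle array 3. The averages of those arrays thus rest in part on a dim gene, and averages without Scd1 were not computed.

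**Figure D1:**
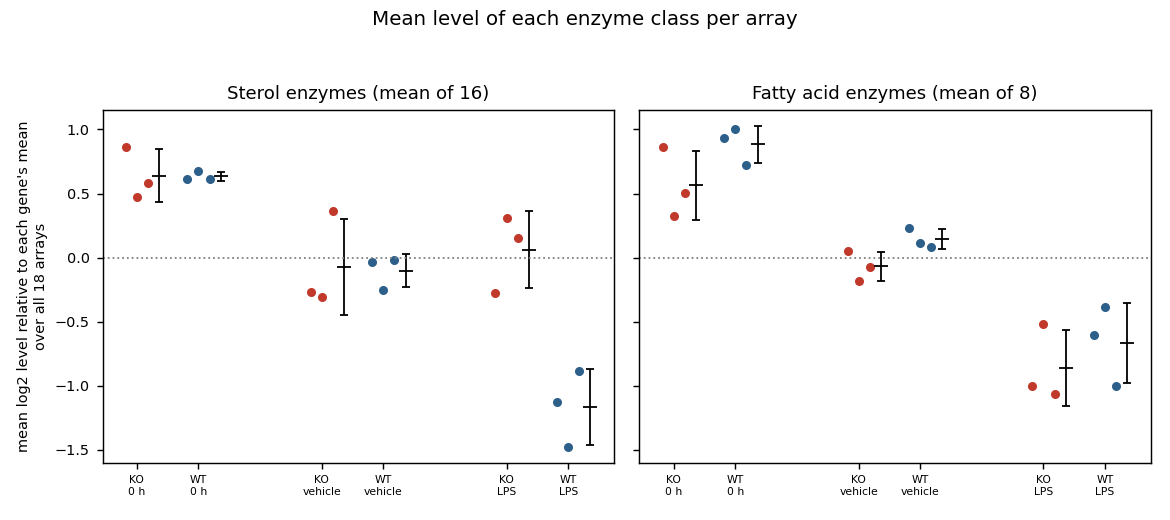
Mean log2 level of the 16 sterol enzymes and of the 8 fatty acid enzymes in each array, relative to each gene's mean over all 18 arrays (points), with the group mean and SD (bars, n = 3 arrays), for KO (red) and WT (blue) cells. The sterol average was lowest in the WT LPS arrays (-0.89 to -1.47), and the fatty acid average was low after LPS in both genotypes. The fatty acid average includes Scd1, which lay under the nonspecific level in all KO LPS arrays, WT LPS array 3 and KO vehicle array 3.

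In WT cells LPS lowered most of the sterol pathway. Of the 16 sterol enzymes 11 fell and none rose, with a median log2 change of -1.12, beside 18.7% of all genes lower, 13.7% higher and a median of -0.01 over all genes. Counted over all 30 genes, 17 fell and 2 rose; none rose under either other scaling, where 19 (arrays shifted to the same median) and 26 (unscaled) fell. The 2 that rose in WT cells were Ggps1, which makes geranylgeranyl diphosphate for protein prenylation, by 0.52 ± 0.16 (SE, adjusted p = 0.0178), and Me1, malic enzyme, a source of NADPH, by 0.81 ± 0.19 (adjusted p = 0.00297). The rise of Ggps1 was lost without WT vehicle array 1 or 2 or WT LPS array 3 (adjusted p up to 0.0945), and with arrays shifted to the same median (0.15, adjusted p = 0.641). With the deposited values unscaled Ggps1 changed by -0.24 (adjusted p = 0.448). The WT rise of Me1 was lost with arrays shifted to the same median (adjusted p = 0.0867) and unscaled (adjusted p = 0.632).

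In KO cells most of the sterol pathway was not called after LPS. Of the 16 sterol enzymes, 3 rose and 2 fell, with a median log2 change of 0.30, beside 13.9% of all genes higher, 20.6% lower and a median of -0.03. Over all 30 genes, 5 rose and 6 fell, or 2 and 5 with unscaled values. The risers were Hmgcs1, HMG-CoA synthase, by 0.99 ± 0.30 (adjusted p = 0.0165), Mvd, mevalonate diphosphate decarboxylase, by 0.93 ± 0.30 (adjusted p = 0.0222), Hsd17b7, a sterol ketone reductase, by 0.63 ± 0.20 (adjusted p = 0.0227), Ggps1 by 1.04 ± 0.16 and Me1 by 0.97 ± 0.19 (adjusted p = 6.85e-05 and 0.000613). The calls of Hmgcs1, Mvd and Hsd17b7 were each lost without KO vehicle array 1, KO vehicle array 2 or KO LPS array 2, with adjusted p up to 0.114, and those of Hmgcs1 and Hsd17b7 also without KO LPS array 3. With unscaled values all 3 were lost, with adjusted p from 0.121 to 0.309, and Hsd17b7 was also lost with arrays shifted to the same median (adjusted p = 0.0917). The sterol median of 0.30 was 0.506 without KO vehicle array 3 and 0.166 without KO vehicle array 1.

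The difference between the responses, KO minus WT, was tested for each gene as an interaction. It was called for 6 of the 30 genes, all in the direction of a higher response in KO cells, beside 1.11% of all genes called (0.515% higher and 0.591% lower). The 6 were Cyp51, Idi1, Msmo1 and Fdft1 among the sterol enzymes and Insig1 and Srebf2 among the regulators. The count was 3 without WT vehicle array 3, KO vehicle array 2 or KO LPS array 3, and 9 without KO vehicle array 3 or WT LPS array 3. The median interaction was 1.24 over the sterol enzymes, 0.07 over the fatty acid enzymes and -0.02 over all genes. None of the 8 fatty acid enzymes passed by limma, and none had an unadjusted p under 0.05, which 12.1% of all genes had.

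**Figure D2:**
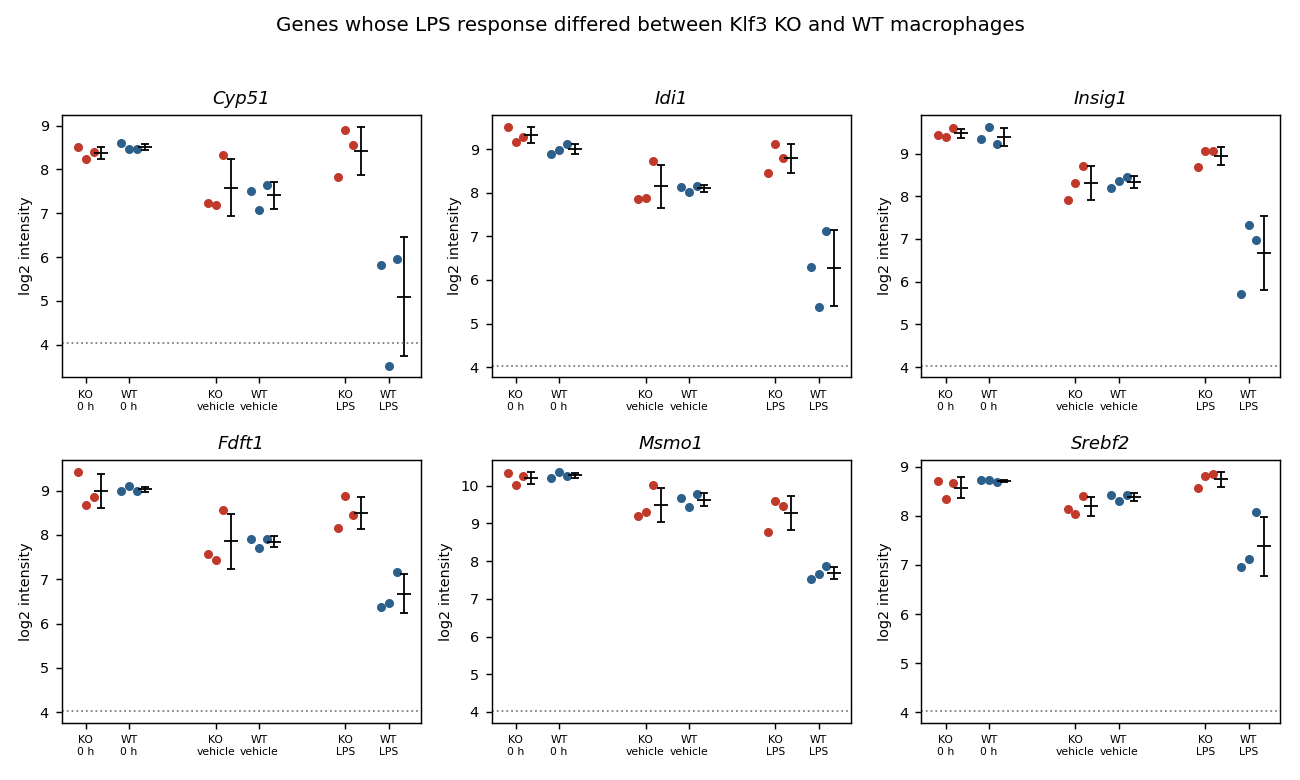
Log2 intensity of the 6 genes with a called difference between the LPS responses, in each KO (red) and WT (blue) array, with group mean and SD (bars, n = 3 arrays); the dotted line is the mean nonspecific level. In all 6 panels the WT LPS arrays lie under the KO LPS arrays, and the KO and WT arrays overlap after vehicle.

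Cyp51, the lanosterol demethylase, had levels of 7.83, 8.91 and 8.55 in KO LPS arrays, against 5.81, 3.52 and 5.95 in WT LPS arrays. After vehicle its levels were 7.24, 7.18 and 8.34 in KO arrays, against 7.51, 7.07 and 7.66 in WT arrays. All KO LPS arrays thus lay above all WT LPS arrays, while the vehicle arrays overlapped; WT LPS array 2 lay under its nonspecific level. LPS minus vehicle was 0.85 ± 0.48 in KO cells (adjusted p = 0.205) and -2.32 ± 0.48 in WT cells (adjusted p = 0.00119), which gave an interaction of 3.16 ± 0.68 (adjusted p = 0.0315), or 3.00 with values raised to the nonspecific level. The interaction kept its call without KO vehicle array 3, KO LPS array 1 or any WT LPS array, and lost it without each of the other 7 arrays, with adjusted p up to 0.0925. A second probe set for Cyp51 gave 3.11 ± 0.60 (adjusted p = 0.0212 over all probe sets), and the third was under the nonspecific level in every array.

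Idi1, the isomerase that makes the activated isoprene units usable, had levels of 8.45, 9.12 and 8.81 in KO LPS arrays, against 6.30, 5.38 and 7.12 in WT LPS arrays. After vehicle they were 7.86, 7.88 and 8.72 in KO arrays, against 8.12, 8.02 and 8.16 in WT arrays. The groups did not overlap after LPS and overlapped after vehicle. Idi1 fell in WT cells by 1.83 on the log2 scale (adjusted p = 0.000274), the change in KO cells was 0.64 ± 0.32 (adjusted p = 0.149), and the interaction was 2.47 ± 0.46 (adjusted p = 0.0119). Its other probe set gave 2.61 ± 0.46 (adjusted p = 0.0122 over all probe sets).

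Insig1, which holds SCAP in the endoplasmic reticulum and is itself a target of SREBP proteins, had levels of 8.69, 9.06 and 9.05 in KO LPS arrays, against 5.70, 7.32 and 6.99 in WT LPS arrays. In vehicle arrays it stood at 7.92, 8.31 and 8.70 in KO cells, against 8.18, 8.35 and 8.45 in WT cells. The lowest value of the whole series was that of WT LPS array 1, and no WT LPS array reached the KO LPS range. The WT response was -1.66 ± 0.30 (adjusted p = 0.000372), the KO response 0.62 ± 0.30 (adjusted p = 0.131) and the interaction 2.28 ± 0.43 (adjusted p = 0.0127).

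Fdft1, squalene synthase, the first enzyme committed to sterols, had levels of 8.16, 8.87 and 8.46 in KO LPS arrays, against 6.37, 6.46 and 7.17 in WT LPS arrays. KO vehicle arrays gave 7.57, 7.43 and 8.57, against 7.91, 7.70 and 7.92 in WT vehicle arrays. The genotypes were apart after LPS and overlapped after vehicle. Its interaction of 1.82 ± 0.40 (adjusted p = 0.0358) kept its call without KO vehicle array 3, KO LPS array 1 or WT LPS array 1 or 3, and lost it without each of the other 8 arrays, with adjusted p up to 0.102.

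Msmo1, methylsterol monooxygenase, had levels of 8.77, 9.61 and 9.47 in KO LPS arrays, against 7.53, 7.67 and 7.86 in WT LPS arrays, with no overlap. Vehicle arrays overlapped, at 9.19, 9.29 and 10.01 in KO cells, against 9.68, 9.43 and 9.77 in WT cells. Here the KO level stayed near that of its vehicle arrays (-0.22 ± 0.22, adjusted p = 0.509) while the WT level fell by 1.94 (adjusted p = 3.32e-06), an interaction of 1.72 ± 0.31 (adjusted p = 0.00961).

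Srebf2, which encodes SREBP2 itself, had levels of 8.56, 8.80 and 8.85 in KO LPS arrays, against 6.95, 7.12 and 8.07 in WT LPS arrays. After vehicle its levels were 8.13, 8.04 and 8.41 in KO arrays, against 8.42, 8.29 and 8.43 in WT arrays. WT LPS array 3 came closest to the KO LPS arrays without reaching them. The interaction was 1.55 ± 0.30 (adjusted p = 0.0168); a second probe set gave 0.81 ± 0.34 (adjusted p = 0.403 over all probe sets), and the call was lost with the mean of both (1.18, adjusted p = 0.076) and without WT vehicle array 3, KO vehicle array 2, WT LPS array 2 or KO LPS array 3. The interactions of Idi1, Msmo1 and Insig1 kept their call without each of the 12 arrays.

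**Figure D3:**
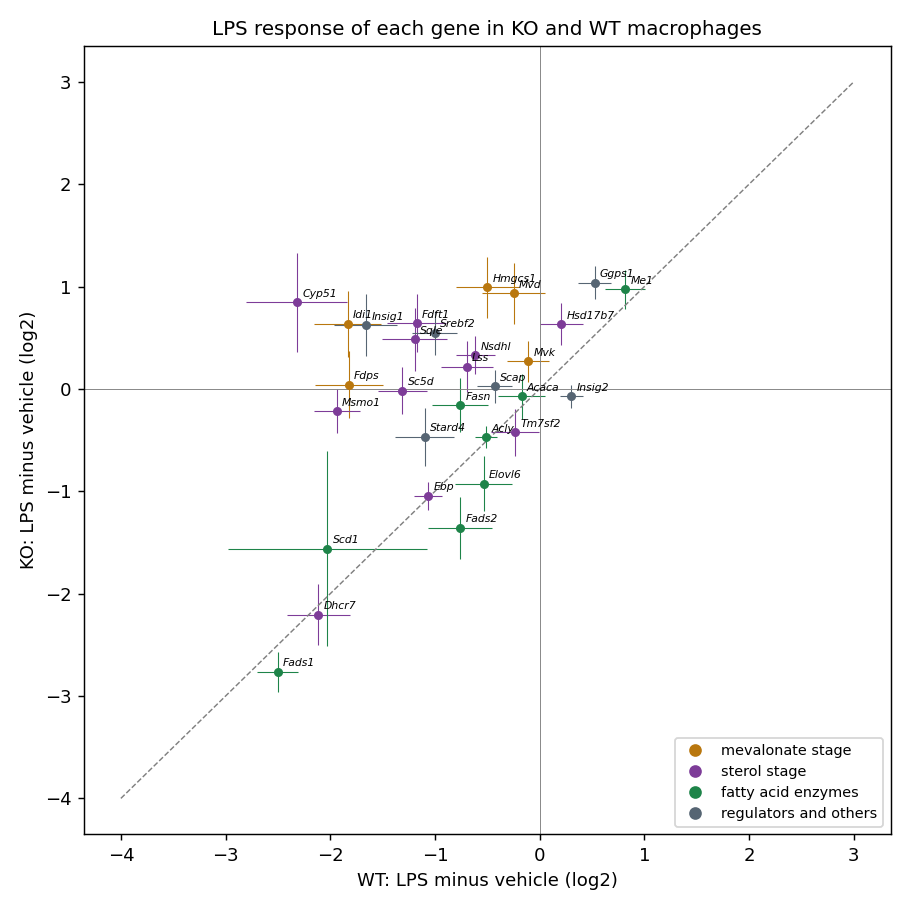
LPS minus vehicle (log2, bars are SE) for each of the 30 genes in KO cells (vertical axis) and in WT cells (horizontal axis), with the dashed line marking equal responses. Cyp51, Idi1 and Insig1 lie far above the line, and Dhcr7, Ebp and the fatty acid enzymes Acly and Fads1 lie close to it.

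Set side by side after LPS, KO cells had more of 14 of the 30 transcripts than WT cells and less of none, beside 2.82% of all genes higher and 3.15% lower. This comparison uses the same LPS arrays as the interaction and is no separate evidence for it. The 14 were 11 sterol enzymes with Srebf2, Insig1 and the fatty acid synthase gene Fasn. Without overlap between the genotypes, 15 genes were higher and 1 lower, beside 8.39% and 10.1% of all genes. The median KO minus WT difference was 1.40 over the sterol enzymes, -0.13 over the fatty acid enzymes and -0.02 over all genes.

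Along the pathway, the enzymes up to farnesyl diphosphate were read by 5 genes, of which 4 were higher in KO LPS than in WT LPS cells. Hmgcs1 had levels of 5.65, 6.30 and 6.42 in KO LPS arrays, against 3.81, 4.66 and 5.18 in WT LPS arrays, a difference of 1.57 ± 0.30 (adjusted p = 0.00481). Its 1 probe set was dim, and WT LPS array 1 lay under the nonspecific level. Mvd differed by 1.49 ± 0.30, Idi1 by 2.52 ± 0.32, or 5.75-fold, and Fdps, farnesyl diphosphate synthase, by 1.88 ± 0.32 (adjusted p = 0.00667, 0.000187 and 0.00226). Mvk, mevalonate kinase, was not called, at 0.39 ± 0.20 (adjusted p = 0.321).

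Fdps had levels of 7.76, 8.65 and 8.38 in KO LPS arrays, against 7.18, 6.02 and 5.95 in WT LPS arrays. Its WT vehicle arrays stood at 8.30, 8.11 and 8.22, so WT cells fell by 1.82 (adjusted p = 0.00031) while the change in KO cells was 0.04 ± 0.32 (adjusted p = 0.945). The interaction of 1.86 ± 0.46 missed the threshold (adjusted p = 0.0653). Without KO vehicle array 3, WT LPS array 1 or KO LPS array 1 it passed, and it passed under both other scalings.

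From squalene onward, 7 of 11 enzymes were higher in KO LPS than in WT LPS cells and 4 were not called. Cyp51 differed by 3.34 ± 0.48, or 10.1-fold, Fdft1 by 1.83 ± 0.28, Sqle, squalene epoxidase, by 1.77 ± 0.31, and Msmo1 by 1.59 ± 0.22 (adjusted p = 0.000523, 0.00093, 0.00236 and 0.000339). Sc5d, a sterol desaturase, differed by 1.32 ± 0.23, Lss, lanosterol synthase, by 1.01 ± 0.25, and Nsdhl, a decarboxylating sterol dehydrogenase, by 0.87 ± 0.19 (adjusted p = 0.00261, 0.0227 and 0.0101). The call of Lss was lost without WT LPS array 1, KO LPS array 2 or KO LPS array 3, and with plate row as a block (0.87, adjusted p = 0.0565), and that of Nsdhl without KO LPS array 2. The other 2 probe sets of Sc5d gave 1.11 ± 0.18 and 0.58 ± 0.25 (adjusted p = 0.00167 and 0.238 over all probe sets).

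Sqle, an SREBP2 target and a control point of the pathway, had levels of 8.65, 9.07 and 8.96 in KO LPS arrays, against 6.47, 7.21 and 7.70 in WT LPS arrays. After vehicle it stood at 8.14, 7.97 and 9.11 in KO arrays, against 8.45, 8.16 and 8.36 in WT arrays. The groups were apart after LPS and overlapped after vehicle, and the interaction of 1.68 ± 0.43 missed the threshold (adjusted p = 0.0822).

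Dhcr7 and Ebp, late enzymes of the pathway, fell after LPS in both genotypes. Dhcr7, which reduces 7-dehydrocholesterol to cholesterol, had levels of 3.96, 4.65 and 4.71 in KO LPS arrays, against 5.02, 4.29 and 4.20 in WT LPS arrays, and the genotypes overlapped; KO LPS array 1 lay under its nonspecific level. Its KO vehicle arrays stood at 6.0, 6.56 and 7.38 and its WT vehicle arrays at 6.80, 6.45 and 6.61, so both genotypes fell, with changes of -2.21 in KO cells and -2.11 in WT cells (adjusted p = 1.85e-05 and 3.42e-05). The interaction was -0.09 ± 0.42 (adjusted p = 0.963).

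Ebp, the sterol isomerase, had levels of 7.36, 7.56 and 7.73 in KO LPS arrays, against 7.80, 7.72 and 7.38 in WT LPS arrays. Vehicle arrays lay higher, at 8.51 to 8.65 in KO cells and 8.65 to 8.79 in WT cells. The changes were -1.04 in KO cells and -1.07 in WT cells (adjusted p = 1.36e-05 and 1.33e-05), and the interaction was 0.02 ± 0.19 (adjusted p = 0.983). Tm7sf2, a sterol reductase, changed by -0.42 ± 0.23 in KO cells and -0.23 ± 0.23 in WT cells (adjusted p = 0.182 and 0.506). Hsd17b7 was 0.55 ± 0.20 apart after LPS (adjusted p = 0.137).

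**Figure D4:**
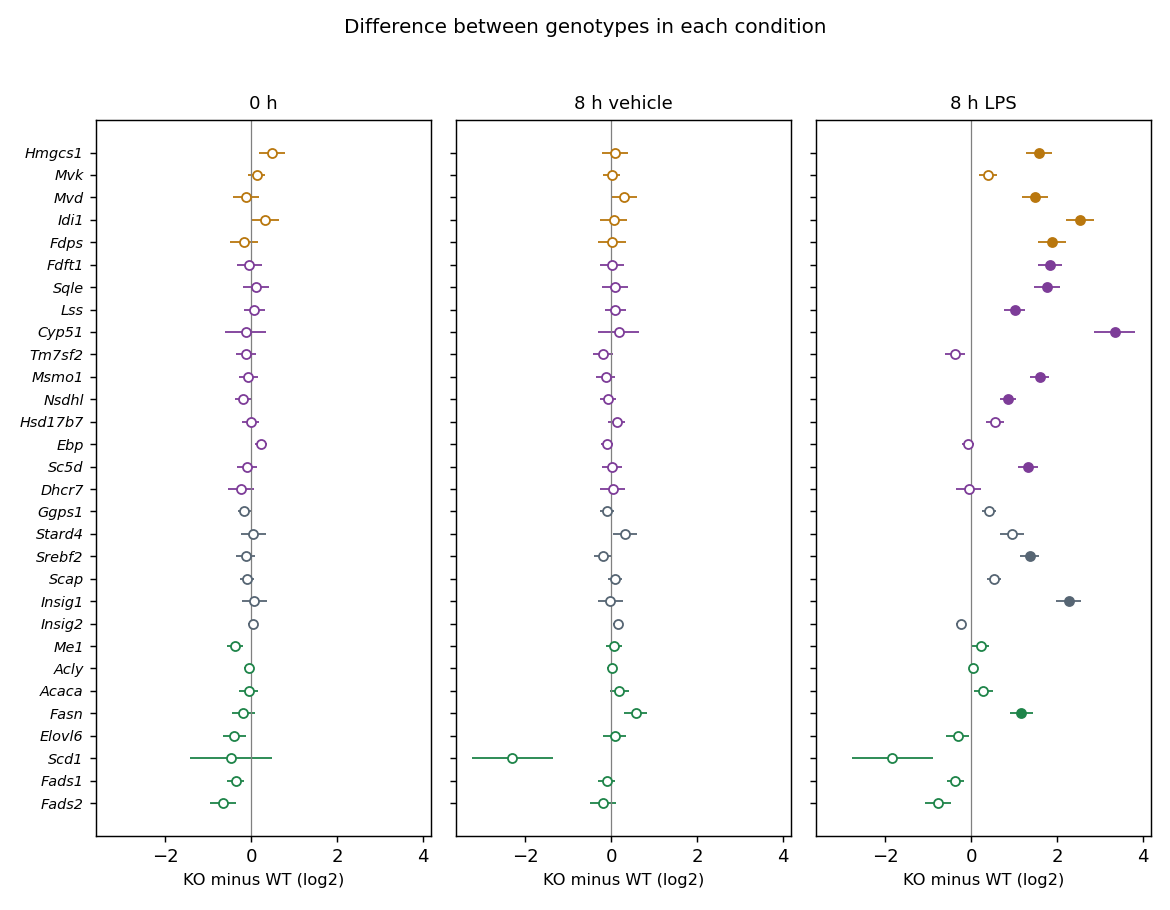
KO minus WT difference (log2, bars are SE) of each gene at 0 h, after 8 h of vehicle and after 8 h of LPS, with filled points where the gene was called and open points where it was not. Filled points appear after LPS only, for 11 sterol enzymes (orange and purple), Srebf2 and Insig1 (grey) and Fasn (green).

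Among the other regulators, Scap, the escort of SREBP proteins, had levels of 8.09, 8.33 and 8.39 in KO LPS arrays, against 7.62, 7.48 and 8.10 in WT LPS arrays, which overlapped. The difference of 0.54 ± 0.16 missed the threshold (adjusted p = 0.0652). Insig2, the relative of Insig1 that is not driven by SREBP proteins in the same way, stood at 8.33, 8.07 and 8.31 in KO LPS arrays, against 8.45, 8.47 and 8.47 in WT LPS arrays (-0.23 ± 0.11, adjusted p = 0.289). The 2 Insig genes thus had different patterns, the first 2.26 higher in KO LPS cells (4.80-fold, adjusted p = 0.000261).

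Stard4, which moves cholesterol between membranes, had levels of 7.21, 7.85 and 7.32 in KO LPS arrays, against 5.61, 6.75 and 7.15 in WT LPS arrays, without overlap. The difference was 0.96 ± 0.28 (adjusted p = 0.0574). Its 3 probe sets disagreed in size: another gave 2.06 ± 0.28 (adjusted p = 0.000421 over all probe sets) and the third 0.80 ± 0.25 (adjusted p = 0.0884). Ggps1 had levels of 6.83, 6.68 and 7.13 in KO LPS arrays, against 6.28, 6.39 and 6.75 in WT LPS arrays, and the 0.41 ± 0.16 between them was not called (adjusted p = 0.165).

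Of 8 fatty acid enzymes, 1 rose and 4 fell in KO cells after LPS (median -0.70), beside 13.9% of all genes higher and 20.6% lower. In WT cells 1 rose and 3 fell (median -0.65), beside 13.7% of all genes higher and 18.7% lower. Fads1, a desaturase of polyunsaturated fatty acids, had levels of 7.05, 7.01 and 6.45 in KO LPS arrays, against 6.76, 7.41 and 7.45 in WT LPS arrays. Vehicle arrays stood at 9.55, 9.38 and 9.86 in KO cells, against 9.73, 9.63 and 9.77 in WT cells. The changes of -2.76 in KO cells and -2.5 in WT cells (adjusted p = 1.16e-08 and 4.88e-08) were the largest falls among the 30 genes in each genotype, and the interaction was -0.26 ± 0.27 (adjusted p = 0.774).

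Acly, ATP citrate lyase, which supplies cytosolic acetyl-CoA to both pathways, had levels of 9.49, 9.72 and 9.58 in KO LPS arrays, against 9.48, 9.54 and 9.62 in WT LPS arrays, and fell, with changes of -0.47 in KO cells and -0.52 in WT cells (adjusted p = 0.00195 and 0.00106). The KO call of Acly was lost with arrays shifted to the same median (adjusted p = 0.396) and unscaled (adjusted p = 0.297). Acaca, acetyl-CoA carboxylase, which makes malonyl-CoA, changed by -0.07 ± 0.22 in KO cells and -0.17 ± 0.22 in WT cells (adjusted p = 0.848 and 0.619). Me1 rose in both, to 8.34, 8.82 and 8.49 in KO LPS arrays, against 8.40, 8.29 and 8.31 in WT LPS arrays.

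Fads2, the other desaturase of this branch, had levels of 4.48, 4.74 and 3.76 in KO LPS arrays, against 5.68, 5.09 and 4.56 in WT LPS arrays, which overlapped; KO LPS array 3 lay under its nonspecific level. It fell by 1.36 in KO cells (adjusted p = 0.00188), and the change in WT cells was -0.76 ± 0.30 (adjusted p = 0.0666); the difference between the responses was not called (-0.60 ± 0.43, adjusted p = 0.631). Elovl6, an elongase of saturated fatty acids, fell by 0.93 in KO cells (adjusted p = 0.0127) and changed by -0.54 ± 0.27 in WT cells (adjusted p = 0.152), with 2 of the 3 KO LPS arrays under the nonspecific level; its call in KO cells was lost without KO vehicle array 3 or KO LPS array 1. Scd1, the stearoyl-CoA desaturase, varied widely: it read 2.13, 3.37 and 1.86 in KO LPS arrays, all under the nonspecific level, against 5.52, 5.23 and 2.09 in WT LPS arrays, and passed in no comparison.

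**Figure D5:**
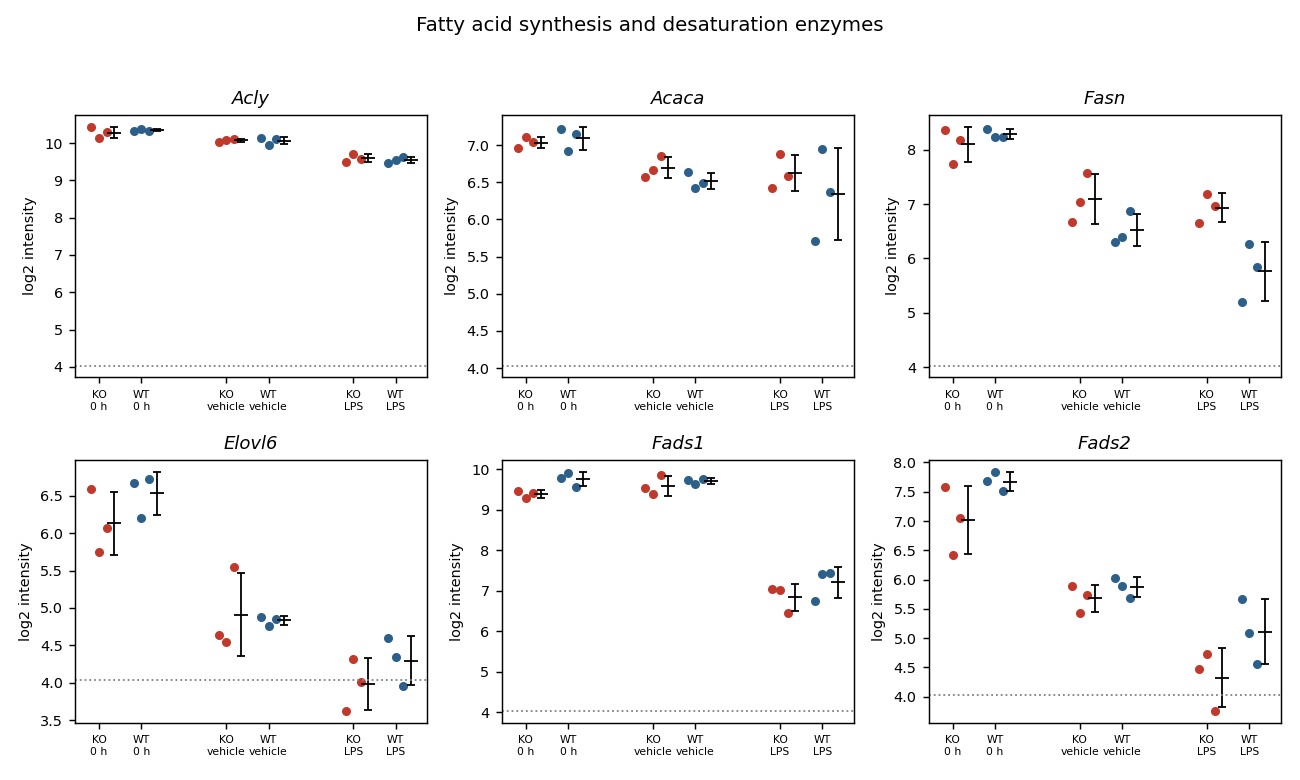
Log2 intensity of 6 fatty acid enzymes in each KO (red) and WT (blue) array, with group mean and SD (bars, n = 3 arrays); the dotted line is the mean nonspecific level. Fads1 and Acly are lower after LPS than after vehicle in both genotypes, and Fasn is the one gene of the 6 with KO LPS arrays above all WT LPS arrays.

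Fasn, fatty acid synthase, was the one fatty acid enzyme called between the genotypes. Its levels were 6.65, 7.18 and 6.96 in KO LPS arrays, against 5.20, 6.26 and 5.84 in WT LPS arrays, without overlap, a difference of 1.17 ± 0.27 (2.25-fold, adjusted p = 0.015). Already after vehicle the KO arrays stood at 6.67, 7.04 and 7.57, against 6.31, 6.40 and 6.87 in WT arrays, 0.57 ± 0.27 apart, overlapping and not called. Its fall in WT cells, -0.76 ± 0.27 (adjusted p = 0.0376), was lost without WT vehicle array 2 or 3 or WT LPS array 1 or 3. The interaction was 0.60 ± 0.38 (adjusted p = 0.571), and the call after LPS was lost without KO LPS array 2 (adjusted p = 0.0713).

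Without LPS, limma called none of the 30 genes between genotypes. At 0 h 1 of the 30 had an unadjusted p under 0.05, beside 6.22% of all genes (0.14% with an adjusted p under 0.05), and after vehicle 2 of the 30 had, beside 4.55% of all genes (0% with an adjusted p). Among the sterol enzymes KO minus WT lay between -0.25 and 0.47 at 0 h and between -0.20 and 0.31 after vehicle. The sterol median was -0.06 in 0 h cells and 0.03 in vehicle cells. Among the 8 fatty acid enzymes KO minus WT was negative for all 8 at 0 h, from -0.66 to -0.06. Their median was -0.37, beside 0.004 over all genes. After vehicle the difference lay between -2.30 and 0.57, with a median of 0.03. The 1 gene at 0 h and the 2 after vehicle with an unadjusted p under 0.05 were fatty acid enzymes.

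The wells named in the labels give every condition rows of its own on the plate, and row and treatment therefore cannot be told apart. Within a condition the genotypes were not balanced over its rows. After LPS the KO arrays lay in rows E, F and F and the WT arrays in rows E, E and F. The KO LPS array in row E had the lowest sterol average of its group (-0.27). The WT LPS array in row F had the highest of its group (-0.89). By contrast, 1 KO and 1 WT array of every condition lay in each plate column, 3 columns in all. With plate row as a block, 13 of the 30 genes were called between KO and WT cells after LPS. The interaction was not fitted with plate row or column. Within the columns, the KO minus WT difference after LPS ran from 1.89 to 5.03 for Cyp51, 1.33 to 3.43 for Idi1, 1.70 to 3.37 for Insig1, 0.98 to 2.50 for Fdft1, 0.91 to 2.07 for Msmo1 and 0.49 to 1.85 for Srebf2. For each of these 6 genes all KO LPS arrays lay above all WT LPS arrays. A positive sign in all 3 columns follows from that and is no separate evidence.

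Both branches had already changed during 8 h of vehicle, that is, after the conditioned medium was removed. Of the 16 sterol enzymes, 6 fell and none rose in KO cells and again in WT cells, with medians of -0.68 and -0.76, beside 5.79% of all genes lower in KO cells and 7.01% in WT cells. Hmgcs1, read by 1 dim probe set, was the only sterol enzyme with a positive change in each genotype. It changed by 0.37 ± 0.30 in KO cells and 0.76 ± 0.30 in WT cells and was not called (adjusted p = 0.52 and 0.114). Over all 30 genes, 2 rose and 10 fell in KO cells, and 1 rose and 10 fell in WT cells, beside 6.76% and 7.16% of all genes higher. Unscaled values gave no rise in either genotype and 16 falls in each, and arrays shifted to the same median gave 1 rise and 18 falls in KO cells and 16 falls in WT cells. The KO count of 12 was 5 without KO 0 h array 1 and 7 without KO 0 h array 3 or KO vehicle array 1 or 2. The WT count of 11 was 6 without WT vehicle array 2 and 7 without WT 0 h array 1 or WT vehicle array 1 or 3. Fdps changed by -1.76 in KO cells and -1.94 in WT cells (adjusted p = 0.0018 and 0.000752), with 8.03, 7.81 and 8.82 in KO vehicle arrays, against 10.45, 9.61 and 9.87 at 0 h. Fads2 changed by -1.34 in KO and -1.80 in WT cells, Elovl6 by -1.22 and -1.70, and Fasn by -1.0 and -1.76, while Me1 rose by 1.04 in KO cells and 0.60 in WT cells. The KO call of Fasn was lost without KO 0 h array 1 or 3 or KO vehicle array 1 or 2, and that of Fads2 without KO 0 h array 1. The WT call of Me1 was lost without WT 0 h array 2 or 3 or any WT vehicle array, and with either other scaling between arrays (adjusted p = 0.314 and 0.462). Its KO call was lost with unscaled values (0.72, adjusted p = 0.0502). No difference between the genotypes in this change was called by limma for any of the 30 genes, and none had an unadjusted p under 0.05, beside 3.67% of all genes.

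Set against that change, the sterol average of KO cells was 0.64 ± 0.20 in 0 h arrays, -0.07 ± 0.38 in vehicle arrays and 0.06 ± 0.30 in LPS arrays, and that of WT cells 0.63 ± 0.04, -0.10 ± 0.13 and -1.16 ± 0.30 (SD, n = 3 arrays each). The fatty acid average of KO cells was 0.56 ± 0.27 in 0 h arrays, -0.07 ± 0.11 in vehicle arrays and -0.86 ± 0.30 in LPS arrays, and that of WT cells 0.89 ± 0.14, 0.14 ± 0.08 and -0.66 ± 0.31.

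Other genes of the pathway and of sterol handling were read for 24 of 33 listed names. In LPS against vehicle, 3 rose and 9 fell in KO cells, beside 13.9% and 20.6% of all genes, and 3 rose and 9 fell in WT cells, beside 13.7% and 18.7%. Limma called no difference between the responses, and 12.5% of the 24 (3 genes) had an unadjusted p under 0.05, beside 12.1% of all genes. Ch25h, which makes the oxysterol 25-hydroxycholesterol, an inhibitor of SREBP processing, rose by 4.79 ± 0.57 in KO cells and 4.09 ± 0.57 in WT cells, to 9.48 ± 0.11 in KO LPS arrays, against 9.76 ± 0.71 in WT LPS arrays. In KO vehicle arrays Ch25h stood at 4.69 ± 1.56, with 2 of the 3 above the nonspecific level, so its KO rise and its interaction rest in part on dim values. Its KO minus WT difference after LPS was -0.28 ± 0.57 (adjusted p = 0.854), and its interaction 0.69 ± 0.81 (adjusted p = 0.798). In both genotypes Mid1ip1, an activator of acetyl-CoA carboxylase, Npc1, which exports cholesterol from lysosomes, Elovl5, an elongase, Idh1, a source of NADPH, and Mbtps2, a protease that frees SREBP proteins, fell after LPS, with changes of -0.73 to -1.89 in KO cells and -1.08 to -1.77 in WT cells.

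After LPS 2 of these 24 genes were higher in KO cells and none was lower, beside 2.82% of all genes higher and 3.15% lower. Lbr, a sterol reductase of the nuclear envelope, was 1.21 ± 0.26 higher in KO than in WT cells (adjusted p = 0.00949), though it fell in both, with changes of -2.27 in KO cells and -3.36 in WT cells. Aacs, which activates acetoacetate for lipid synthesis, was 0.77 ± 0.20 higher (adjusted p = 0.0281), at 6.62 ± 0.18 in KO LPS arrays and 5.84 ± 0.34 in WT LPS arrays.

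Genes of LXR, the nuclear receptor that answers to oxysterols, and of cholesterol efflux were read for 10 of 12 names. In LPS against vehicle, 1 rose and 8 fell in KO cells, beside 13.9% and 20.6% of all genes, and 1 rose and 5 fell in WT cells, beside 13.7% and 18.7%. Limma called no difference between the responses, and 3 of the 10 had an unadjusted p under 0.05, beside 12.1% of all genes. Pltp, phospholipid transfer protein, stood at 7.56 ± 0.31 in KO LPS arrays, against 10.16 ± 0.55 in WT LPS arrays, a difference of -2.60 ± 0.45 (adjusted p = 0.00221) with an interaction of -2.71 ± 0.63 that missed the threshold (adjusted p = 0.0501). Apoc2, an apolipoprotein, differed by -1.97 between KO LPS and WT LPS cells (adjusted p = 0.0425). Cyp27a1, a sterol hydroxylase, was under the nonspecific level in all KO LPS arrays, at least 9.24-fold lower than in KO vehicle arrays, and lay above it in 1 of the 3 WT LPS arrays, with a measured change of -3.90 in WT cells. Rxra, the partner receptor of LXR, changed by -2.09 in KO cells and -1.87 in WT cells. Apoc1, an apolipoprotein gene, was under the nonspecific level in every LPS array, at least 1.62-fold lower than vehicle in KO cells and at least 1.25-fold lower in WT cells (adjusted p = 0.00124 and 0.00175). Abcg1, a sterol exporter, fell in KO cells by 2.76 on the log2 scale (adjusted p = 0.00476), and its WT change was -0.93 ± 0.69 (adjusted p = 0.36). Its levels ran from 5.87 to 9.58 in WT LPS arrays and from 7.56 to 9.75 in KO vehicle arrays. KO vehicle arrays also spread widely for Pltp, Apoc2 and Cyp27a1 (SD 1.32, 1.11 and 1.12). Calls of the LXR and efflux genes were not checked by leaving out arrays. Apoe changed by -1.92 in KO cells and -2.06 in WT cells, and Nr1h3, which encodes LXR alpha, rose by 1.68 in KO cells and 1.86 in WT cells.

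Of 7 proliferation markers, 6 fell in KO cells and 7 in WT cells after LPS, beside 20.6% of all genes lower in KO cells and 18.7% in WT cells. None of the 7 was called between KO and WT cells after LPS (Mki67 0.75, adjusted p = 0.0562), and their part in the lipid genes was not tested.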

How the data were processed

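RNA of 18 macrophage samples was read on Affymetrix HT MG-430PM arrays. The deposited values were linear intensities, 1 per probe set and array, made by the authors with Partek, per the submitters' processing notes; its version and any background correction or scaling were not given in the sources used here. Values of different arrays did not share a common distribution.

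Intensities were taken to log2 and quantile-normalized between arrays. Of 45141 probe sets, 104 controls were left out, 28898 had 1 gene in GEO's platform annotation, 551 had several and 15588 had none listed. That left 17097 genes; for the 7180 with more than 1 probe set, the brightest on average was used. No filter on dim probe sets was used. R 4.3.3 and limma 3.58.1 fitted 1 mean per group over all 18 arrays, with 9 comparisons, two-sided moderated tests and Benjamini-Hochberg adjustment over all genes at 0.05. Each ± on a difference is the SE of that fit, and each ± on a level is an SD. The number of arrays limits the precision. The nonspecific level was set in each array from its 23 nonspecific controls, as their 95th percentile.

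The members and gene lists were chosen with earlier results of these data known. All 30 genes read could be named, and from the further pathway and LXR lists up to 6 genes with the largest called changes per LPS comparison, together with Ch25h. Aacs and the marker genes named fall outside that rule and were chosen after their values were seen. Promoters came from RefSeq (GRCm38.p6), with 27 of 34 genes matched.

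On simulated data with 200 of 17097 genes changed, the fit recovered 74% of log2 changes of 1 and 98% of changes of 2 for LPS in KO cells, and 45% and 93% for the interaction. The simulation changed these genes in KO LPS arrays only and gave each gene the same SD in every group. In the data the WT LPS arrays spread widest, and 5895 genes were called for LPS in KO cells. The shares recovered in the data may therefore differ. Alternatives were the scaling, the probe set rule, a filter on dim genes, the variance model, plate position, the replicate number as a block and each array left out. Plate position and a replicate block shared by the genotypes were used only for KO against WT.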

Additional observations from a re-analysis of the deposited data

Results flagged for a closer look

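The LPS response differed between KO and WT cells by limma's interaction test for 6 genes, each with a higher response in KO cells. The log2 difference between the responses, KO minus WT, was 3.16 for Cyp51, 2.47 for Idi1, 2.28 for Insig1, 1.82 for Fdft1, 1.72 for Msmo1 and 1.55 for Srebf2. The calls of Cyp51, Fdft1 and Srebf2 were lost in 7, 8 and 4 of the 12 fits that each left out 1 array. Adjusted p was then up to 0.0925, 0.102 and 0.0521. Groups of 3 arrays were too small to test for an array standing apart.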

How the results depend on the processing

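Between the KO and WT responses to LPS the count of called genes was 6, and 10 with the deposited values unscaled. Unscaled values gave 7 called genes for LPS in KO cells (2 higher and 5 lower, against 5 and 6). The median of all genes was then -0.441 in the WT response and 0.44 in the interaction, against -0.01 and -0.02 after quantile normalization. The sterol median in WT cells was then -1.81 and the fatty acid median -1.23, and the interaction medians were 1.69 and 0.61. Ggps1 in WT cells turned to -0.24 (adjusted p = 0.448). With arrays shifted to the same median, the sterol median in WT cells was -1.42, the fatty acid interaction median 0.341 and the KO count for vehicle against 0 h 19. Values raised to the nonspecific level, chosen after seeing the data, gave 17 for vehicle against 0 h in WT cells. The cause of these shifts was not tested.

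Leaving out 1 array gave 8 to 16 calls for LPS in KO cells, 16 to 19 in WT cells, 3 to 9 for the interaction, 11 to 16 for KO against WT after LPS, and 5 to 14 in KO cells and 6 to 8 in WT cells for vehicle against 0 h; the counts between genotypes without LPS stayed at 0. The sterol median ran from 0.166 to 0.506 in KO cells, -1.13 to -0.948 in WT cells and 1.06 to 1.43 for the interaction. The fatty acid median ran from -0.811 to -0.53, from -0.662 to -0.52 and from -0.101 to 0.152 in the same comparisons. In 4 of these fits (without KO vehicle array 3, WT LPS array 1, WT LPS array 3 or KO LPS array 2) the fatty acid interaction median turned negative. No called gene changed sign, and a gene's call was lost 96 times.

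Arrays with the same replicate number did not all correlate above 0.1 (r from -0.0843 to 0.144), so the numbers were not taken to pair them. With the number as a random replicate block within genotype, the counts were 11 for LPS in KO cells, 20 in WT cells, 6 for the interaction and 14 for KO against WT after LPS. A fixed replicate block shared by the genotypes gave 15 for the last comparison, the plate column 14 and the plate row 13. With 3 arrays a group, 45% of simulated interactions of 1 (log2) were recovered, with the same spread in every group, which the data did not have. Smaller differences may have been missed, and the share recovered in the data is not known.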
